A study of Rattus norvegicus with 15 samples.

Results

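The comparison described here is that of rat bone marrow stromal cells kept in osteogenic medium with aspirin (Ost_ASA, 3 libraries) and without it (Ost, 3 libraries), chosen by the sample labels as 6 of the 15 RNA sequencing libraries of the study. All cells came from the marrow of Sprague-Dawley rats, an outbred strain, were used at passages 3 to 6 and had reached confluence in growth medium. The Ost group was then kept in osteogenic differentiation medium, and the Ost_ASA group in the same medium with aspirin added. The remaining groups, with 3 libraries each, were untreated cells (Control), cells in adipogenic differentiation medium (Adi) and cells in that medium with aspirin (Adi_ASA). The sources used here do not give the dose of aspirin, the days in culture or the age and sex of the animals, and no label says whether libraries of a group were separate animals or separate dishes. P-values therefore reflect only the spread among libraries, part of which may be technical.

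Aspirin acetylates the cyclooxygenase enzymes Ptgs1 and Ptgs2 and so blocks the first committed step from arachidonic acid to the prostaglandins. Stromal cells of the marrow can become osteoblasts, the cells that lay down and mineralise bone matrix, or adipocytes. Osteogenic medium commonly supplies ascorbate and a phosphate source, which support collagen assembly and mineral deposition, and prostaglandin E2 is known to act on cells of the bone lineage through its receptors. These statements are background, and the genes they concern could not be looked up in these data, because the count table pairs none of its identifiers with a symbol and the reference gene table held 0 rat Ensembl identifiers. The label of the cells could not be checked against marker genes for the same reason. Genes are named by Ensembl identifier, at most 2 in each direction, and their functions and positions are not stated.

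The 6 libraries held 18373289 to 22789300 counted reads, and 15543 genes passed the filter on low counts. Within a group, libraries differed by a root mean square of 0.437 to 0.455 in log2 CPM (counts per 1000000 reads, with library totals scaled) over these genes for Ost, and of 0.456 to 0.466 for Ost_ASA. The 9 pairs of 1 Ost and 1 Ost_ASA library differed by 0.474 to 0.496. Every pair across the groups thus lay further apart than every pair within a group, by a small margin.

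Aspirin changed a small set of genes in osteogenic medium, mostly by less than 2-fold. A gene was called changed where the adjusted p of edgeR's quasi-likelihood test, over all genes tested, was under 0.05. In all, 363 genes rose (2.34% of the genes tested) and 201 fell (1.29%), which is 564 genes or 3.63%. Without Ost replicate 1, Ost replicate 2 or Ost_ASA replicate 3, this total was 338, 347 or 370. The median change was 0.42 on the log2 scale among those that rose and -0.45 among those that fell, beside 0.00300 over all genes tested. Called changes spanned 0.19 to 2.37 for the rises and -0.19 to -3.89 for the falls, leaving aside 2 falls with 0 reads in all Ost_ASA libraries. Those 2 genes had 9 and 7 reads over the Ost libraries, and were at least 3.09-fold and at least 2.40-fold lower with aspirin, against a floor of 3 counts over the group.

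The genes that rose made up 5.07% to 5.39% of the counted reads in the Ost libraries and 6.49% to 6.99% in the Ost_ASA libraries. Those that fell made up 4.06% to 4.25% and 2.99% to 3.09%. Of the called genes, 537 carried an Ensembl identifier, which is 3.78% of the 14210 such genes tested. The other 27, with 21 higher and 6 lower, were among 1333 tested rows that the authors named with a running number, or 2.03% of them.

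Calls were more frequent among genes with more reads. They came to 15 of 2012 genes with a mean under 1 CPM over the 15 libraries (0.746%), 106 of 4474 at 1 to 10 CPM (2.37%), 287 of 7188 at 10 to 100 CPM (3.99%) and 156 of 1869 at 100 CPM or more (8.35%). The median size of a called change fell in the same order, from 1.85 on the log2 scale below 1 CPM to 0.90, 0.39 and 0.34. All 15 genes called below 1 CPM had changed at least 2-fold, against 7 of the 156 at 100 CPM or more. Larger called changes thus lay mostly among genes with few reads, where a smaller change is less likely to pass the test. The order of sizes therefore does not show how the response itself depends on level.

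**Figure D1:**
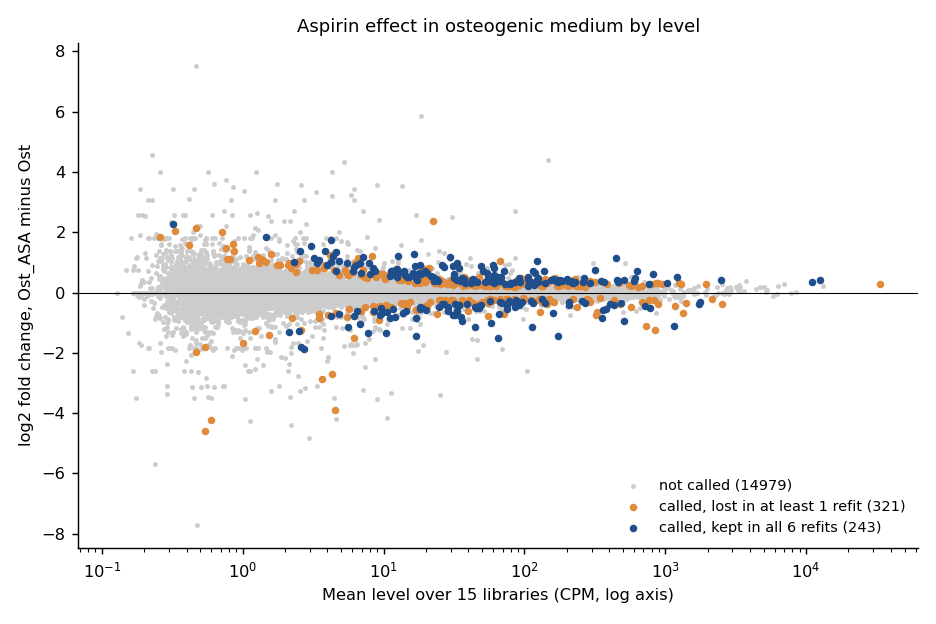
Each point is 1 of 15543 genes, with its mean level over 15 libraries (CPM, log axis) on the x axis and its log2 fold change of Ost_ASA minus Ost on the y axis. Called genes (243 kept in all 6 refits that leave out 1 library, 321 lost in at least 1) lie close to 0 at high levels, and the grey points far from 0 are large fitted changes that did not pass the test.

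The libraries of both groups did not overlap for 361 of the 363 genes that rose and for all 201 that fell. Over all genes tested, all Ost_ASA libraries lay above all Ost libraries for 1625 (10.5%), and below them for 1245 (8.01%), so that 2308 genes without overlap were not called. The gap between the groups was narrow for most called genes. The lowest library of the higher group exceeded the highest library of the lower group by a median ratio of 1.18 among the rises and 1.19 among the falls. This ratio reached 1.5 for 52 rises and 32 falls, and 2 for 12 rises and 1 fall. Over all 15543 genes tested, called or not, it reached 1.5 for 122 (0.785%) and 2 for 19.

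Changes of at least 2-fold were called for 41 genes that rose (0.264% of the genes tested) and 29 that fell (0.187%). Of these 70 genes, 41 stayed under a mean of 5 CPM in the higher group and 13 under 1 CPM. Libraries of a group were further apart for these genes than for the smaller changes. The ratio of the highest to the lowest Ost library had a median of 1.35 among the 41 rises and 1.43 among the 29 falls, beside 1.11 for both the 322 rises and the 172 falls under 2-fold. In Ost_ASA the same medians were 1.23 and 1.46, beside 1.14 and 1.12. Over all genes tested with at least 1 CPM, the medians were 1.14 in Ost and 1.17 in Ost_ASA. A smaller change passes the test only where the libraries of a group lie close together, so the contrast between the sizes is no separate result.

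Genes to be described singly were the largest 2 rises and the largest 2 falls among called genes with an Ensembl identifier, no overlap between the groups and a mean of at least 5 CPM in the higher group, conditions that 305 rises and 173 falls met. ENSRNOG00000022432 and ENSRNOG00000001189 kept their calls in each refit without 1 library, and ENSRNOG00000055012 and ENSRNOG00000051591 in 2 of 6.

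ENSRNOG00000022432 had 1.93, 2.15 and 2.04 CPM in Ost replicates 1 to 3, and 6.96, 6.61 and 7.14 CPM in Ost_ASA replicates 1 to 3. The 3 libraries of each group lay close together, and the lowest with aspirin was 3.08 times the highest without it. These levels came from 41 to 46 reads per Ost library and 142 to 163 reads per Ost_ASA library. The gene rose 3.38-fold with aspirin (log2 fold change 1.76, SE 0.17, adjusted p = 3.46e-06), and ranked 7 by p-value among all genes tested. Without each library in turn, its log2 fold change stayed between 1.72 and 1.79 and its adjusted p reached 9.35e-05 at most. It was called in all 11 alternative settings run, among them a fit to the 6 osteogenic libraries alone (adjusted p = 5.85e-06).

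Its mean level was lowest in Ost (2.04 ± 0.107 CPM, SD, n = 3), followed by Control (3.01 ± 0.274), Adi_ASA (4.01 ± 0.687), Adi (5.15 ± 0.986) and Ost_ASA (6.90 ± 0.27). Adi_ASA and Adi, next to each other in this order, overlapped in their libraries, and their difference did not pass the test (log2 fold change -0.36, SE 0.17, adjusted p = 0.268). The effect of aspirin differed between the media by 2.12 on the log2 scale, as osteogenic minus adipogenic (SE 0.24, adjusted p = 2.66e-05).

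ENSRNOG00000001189 had 31.3, 29.1 and 46.5 CPM in Ost replicates 1 to 3, and 9.72, 12.4 and 15.2 CPM in Ost_ASA replicates 1 to 3. Every library with aspirin was low, and the lowest Ost library was 1.91 times the highest Ost_ASA library. The gene fell 2.87-fold (log2 fold change -1.52, SE 0.24, adjusted p = 0.00592), from 555 to 1048 reads per library to 218 to 347. Without each library in turn, the log2 fold change lay between -1.69 and -1.28, the smaller size being that without Ost replicate 3, and the adjusted p between 0.0104 and 0.0272. Fitted to the 6 osteogenic libraries alone, it was not called (log2 fold change -1.53, adjusted p = 0.0784).

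In the order of levels, Ost_ASA was lowest at 12.4 ± 2.73 CPM (SD, n = 3) and Ost next at 35.6 ± 9.47, and both lay under all libraries of Adi (80.3 ± 14.6), Control (95.5 ± 10.2) and Adi_ASA (102.6 ± 18.0). Those 3 groups overlapped with each other. In adipogenic medium the gene had a log2 fold change of 0.36 with aspirin (SE 0.21, adjusted p = 0.454). The difference between the media passed the test, at -1.88 (SE 0.32, adjusted p = 0.0115).

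ENSRNOG00000055012 had 10.7, 4.66 and 4.26 CPM in Ost replicates 1 to 3, and 49.1, 20.6 and 32.7 CPM in Ost_ASA replicates 1 to 3. The groups did not overlap, with a ratio of 1.92 between the nearest libraries, but both were spread over more than 2-fold. The gene rose 5.17-fold (log2 fold change 2.37, SE 0.50, adjusted p = 0.0287). Leaving out Ost replicate 1, the highest of its group, raised the log2 fold change to 2.94 (adjusted p = 0.0321), and leaving out Ost_ASA replicate 1, the highest of the other group, lowered it to 2.01 (adjusted p = 0.0767). The call was also lost without Ost replicate 2 (2.18, adjusted p = 0.115), Ost replicate 3 (2.13, adjusted p = 0.108) and Ost_ASA replicate 3 (2.40, adjusted p = 0.0700), with log2 fold changes close to that of all libraries. It held without Ost_ASA replicate 2 (2.63, adjusted p = 0.0274). In the fit to the 6 osteogenic libraries alone the log2 fold change was 2.36 and the adjusted p 0.185.

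This gene varied in every group, with 19.3 ± 5.43 CPM (SD, n = 3) in Control, 33.5 ± 15.9 in Adi, 19.6 ± 4.35 in Adi_ASA, 6.55 ± 3.63 in Ost and 34.1 ± 14.3 in Ost_ASA. Ost alone lay below all other libraries, and the levels of the other groups overlapped along the order. Its aspirin effect was -0.77 in adipogenic medium (SE 0.47, adjusted p = 0.457) and differed between the media by 3.14 (SE 0.69, adjusted p = 0.0374).

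ENSRNOG00000051591 had 33.4, 2.30 and 16.1 CPM in Ost replicates 1 to 3, and 1.16, 0.791 and 1.53 CPM in Ost_ASA replicates 1 to 3. The Ost libraries spanned more than 10-fold, and Ost replicate 2 lay only 1.5 times above the highest Ost_ASA library. The gene fell 14.8-fold by the fit (log2 fold change -3.89, SE 0.78, adjusted p = 0.0210). Without Ost replicate 2, the lowest of its group, the log2 fold change was -4.40 (adjusted p = 5.28e-05), and without Ost replicate 1, the highest, it was -2.99 (adjusted p = 0.0507). The call held without Ost replicate 3 (-3.94, adjusted p = 0.0465). It was lost without Ost_ASA replicates 1, 2 and 3 (adjusted p = 0.0697, 0.0863 and 0.0718), although the log2 fold changes of -3.89, -3.68 and -4.14 stayed near that of all libraries. In the fit to the 6 osteogenic libraries alone it was -3.90 and not called (adjusted p = 0.276).

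Outside Ost, this gene stayed low in all libraries, with 1.79 ± 0.82 CPM (SD, n = 3) in Control, 1.06 ± 0.179 in Adi, 1.29 ± 0.14 in Adi_ASA and 1.16 ± 0.371 in Ost_ASA. Its high levels were thus those of Ost replicates 1 and 3. In adipogenic medium its log2 fold change with aspirin was 0.28 (SE 0.89, adjusted p = 0.922), and the difference between the media did not pass the test (-4.17, SE 1.17, adjusted p = 0.107).

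**Figure D2:**
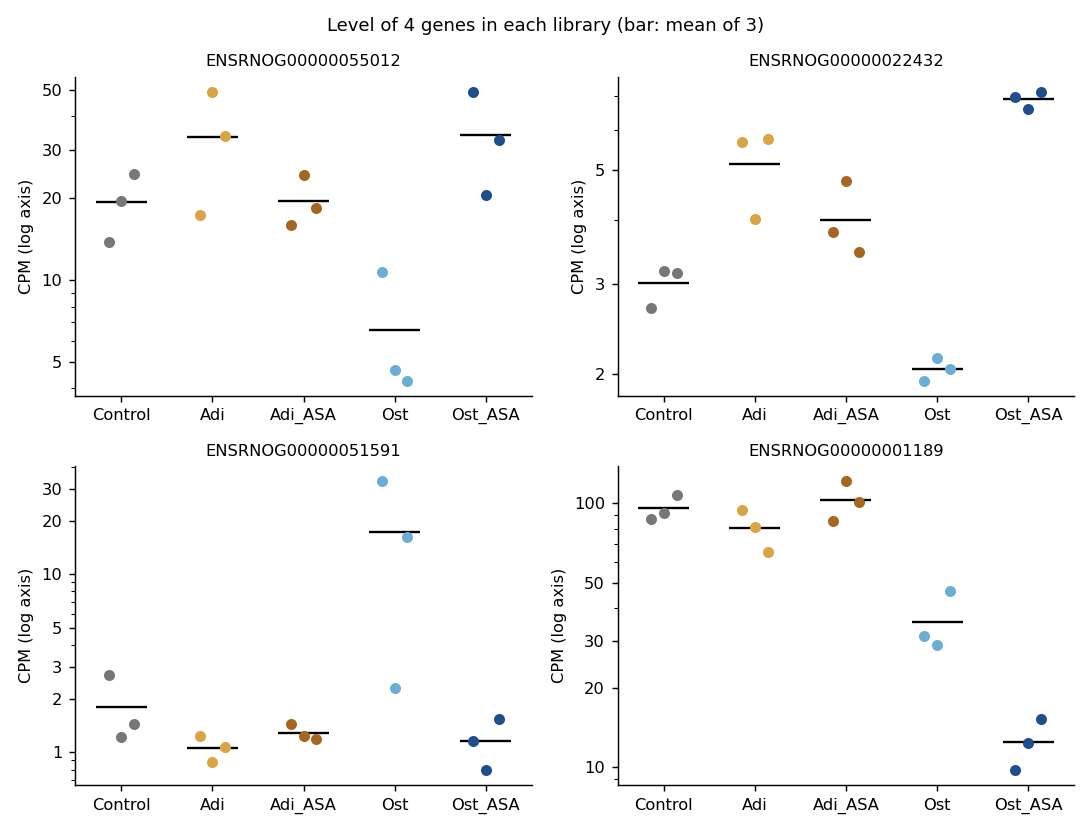
CPM (log axis) of 4 genes in each of the 15 libraries, with points for libraries 1 to 3 of a group from left to right and a bar at the group mean. ENSRNOG00000022432 and ENSRNOG00000001189 have separate Ost and Ost_ASA groups, tightly spaced for the first of them, whereas the Ost libraries of ENSRNOG00000051591 range from 2.30 to 33.4 CPM.

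The dependence on single libraries was then measured for all 564 called genes, by refitting without each of the 6 libraries in turn and counting the refits in which a gene kept its direction and its call. A refit has fewer libraries, so some loss of calls comes with its construction. In all 6 refits, 243 genes kept their call (43.1%), 155 that had risen (42.7% of the rises) and 88 that had fallen (43.8% of the falls). Another 59 genes kept it in 4 or 5 refits, 235 in 1 to 3, and 27 in none. No called gene changed direction in any refit. The estimates themselves moved little, with a median largest shift of 0.068 on the log2 scale, and 3 genes shifted by more than 1.5-fold.

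Leaving out Ost replicate 1 cost the most calls. Without it 338 genes were called, 318 of them from the 564, so that 246 were lost. Without Ost replicate 2 the losses were 231, without Ost_ASA replicate 3 they were 228, and without Ost_ASA replicate 2 and Ost replicate 3 they were 186 and 178. Without Ost_ASA replicate 1, 144 calls were lost and 123 genes were called that had not been before, which left 543. The other refits gained 14 to 47. Of the 321 genes that lost the call in at least 1 refit, 24 lost it in exactly 1. Of these 24, 10 lost it without Ost replicate 1 and 7 without Ost replicate 2. The rest of the 321 genes, outside these 24, lost the call in more than 1 refit.

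**Figure D3:**
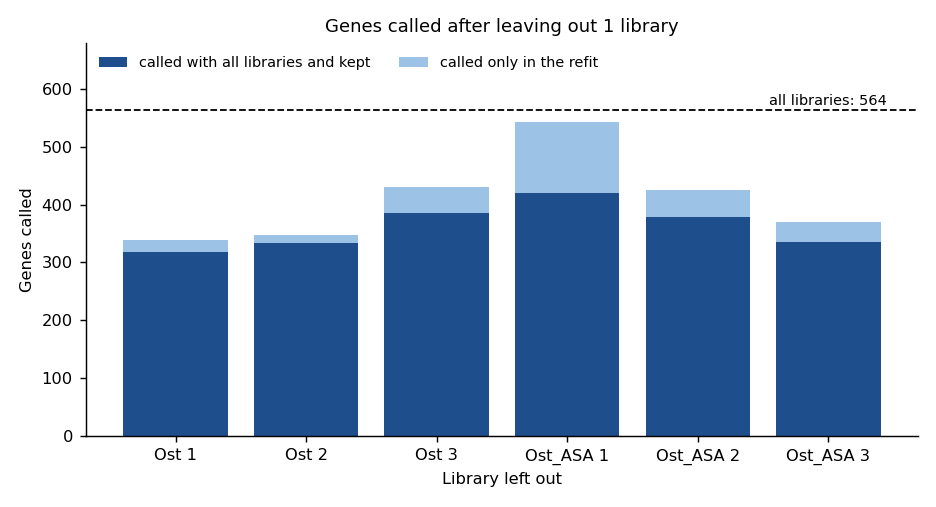
Number of genes called (y axis) after leaving out 1 library (x axis), split into those also called with all libraries and those called only in the refit, with the count for all libraries (564) as a dashed line. The bars run from 338 without Ost replicate 1 to 543 without Ost_ASA replicate 1, where 123 genes are new.

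The share of calls kept was highest in the middle classes of size. Of 370 called genes that changed less than 1.5-fold, 137 kept the call in all 6 refits (37%). The share was 72 of 124 (58.1%) from 1.5-fold to under 2-fold and 33 of 60 (55%) from 2-fold to under 4-fold. Among the 10 genes with a fitted change of at least 4-fold, 5 in each direction, 1 kept its call throughout (10%), 8 kept it in 1 to 3 refits and 1 in none. All but the 2 named above (ENSRNOG00000055012 and ENSRNOG00000051591) of these 10 were under 5 CPM in the higher group, and the 2 genes with 0 reads in Ost_ASA are among them. By level, 1 of 15 genes under 1 CPM kept its call in all 6 refits (6.67%), against 38.7% at 1 to 10 CPM, 44.6% at 10 to 100 CPM and 46.8% at 100 CPM or more. Genes kept throughout had wider gaps between the groups, with median ratios of the nearest libraries of 1.24 (rises) and 1.29 (falls), beside 1.12 and 1.13 for those lost at least once. The gaps and the refits come from the same 6 libraries, so this difference is no separate evidence.

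**Figure D4:**
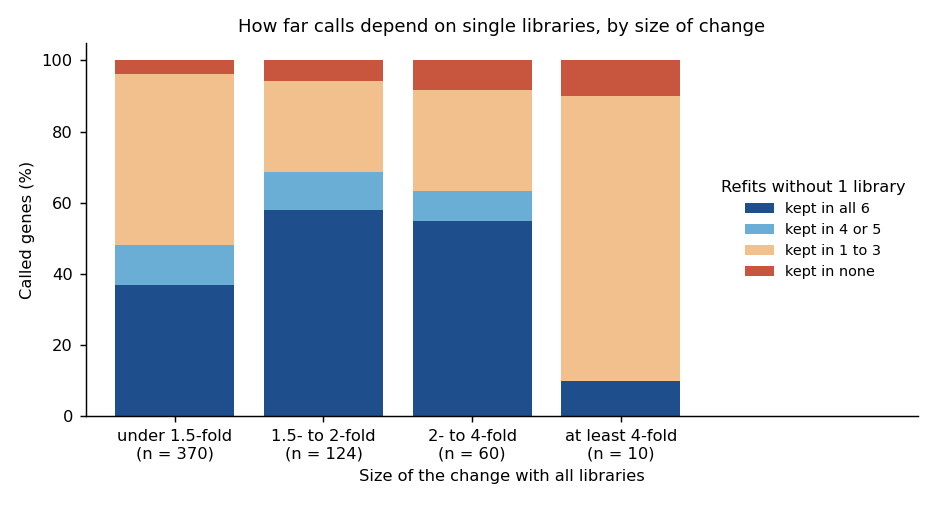
Share of called genes (y axis, percent) by the number of the 6 refits without 1 library that kept the call, in 4 classes of fitted change (x axis, with the number of genes). The share kept in all 6 is 37% under 1.5-fold, 58.1% and 55% in the middle classes and 10% at 4-fold or more.

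Most fitted changes of at least 4-fold did not pass the test, and 1 library often held much of the summed CPM of the higher group. At a mean of at least 5 CPM in the higher group, 27 genes had a fitted change of at least 4-fold without a call, 14 higher and 13 lower with aspirin, against 2 genes with one. For these 27, the highest library of the higher group held a median of 68.8% of that group's summed CPM (range 38.8% to 93.4%), where equal libraries would hold a share of 1 in 3, and more than 80% for 10 of them. That library was Ost replicate 2 for 8 genes, Ost_ASA replicate 1 for 6, Ost_ASA replicate 3 for 5, Ost replicate 3 and Ost_ASA replicate 2 for 3 each and Ost replicate 1 for 2. Groups did not overlap for 13 of the 27, and the smallest adjusted p among them was 0.107. The 29 called genes with at least 2-fold change at this level had a median of 37.3% in the highest library (range 34.5% to 64.4%). The 79 genes of that size and level that were not called had a median of 59.4%. For the 2 called genes of at least 4-fold, the shares were 47.9% and 64.4%. The test weighs the spread within groups, so these shares describe what was called and are no separate evidence.

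The same genes were looked up in adipogenic medium, a comparison that has no library in common with the osteogenic one. Of the 564 genes, 89 were also changed by aspirin there (15.8% of these genes and 13.2% of the 675 changed in adipogenic medium), where 4.34% of all genes tested were called. Those 675 came down to 409 and 414 without Adi replicates 2 and 3, and to 437, 420 and 285 without Adi_ASA replicates 1, 2 and 3. Among the 243 genes kept in all 6 refits the count was 53 (21.8%), with 29 in the same direction and 24 in the opposite one. For the 321 lost at least once it was 36 (11.2%), with 23 and 13. The tests in both media take the spread of a gene from 1 shared estimate, which can make calls coincide. Whatever its call, the sign was the same in both media for 124 of the 243 genes (51%), and for 53.4% of all genes tested. The median log2 fold change in adipogenic medium was 0.00219 for the 155 rises kept throughout and -0.011 for the 88 falls, beside 0.49 and -0.53 in osteogenic medium.

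A test of the difference between the 2 effects called 440 genes (2.83% of those tested, and 289 genes without Adi_ASA replicate 3), and 205 of the 564 were among them (36.3%), 139 that had risen and 66 that had fallen in osteogenic medium. Among the genes kept in all 6 refits it called 132 of 243 (54.3%), and among those lost at least once 73 of 321 (22.7%). For 182 of the 205, the fitted effect in adipogenic medium had the opposite sign, as it had for 383 of all 440 genes called by this test, a similar share. Among the 70 genes changed at least 2-fold, 29 differed between the media, 7 were called in adipogenic medium as well, and 5 of these 7 in the same direction. The difference uses the Ost and Ost_ASA libraries again, so its calls among these genes are not independent of their choice.

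**Figure D5:**
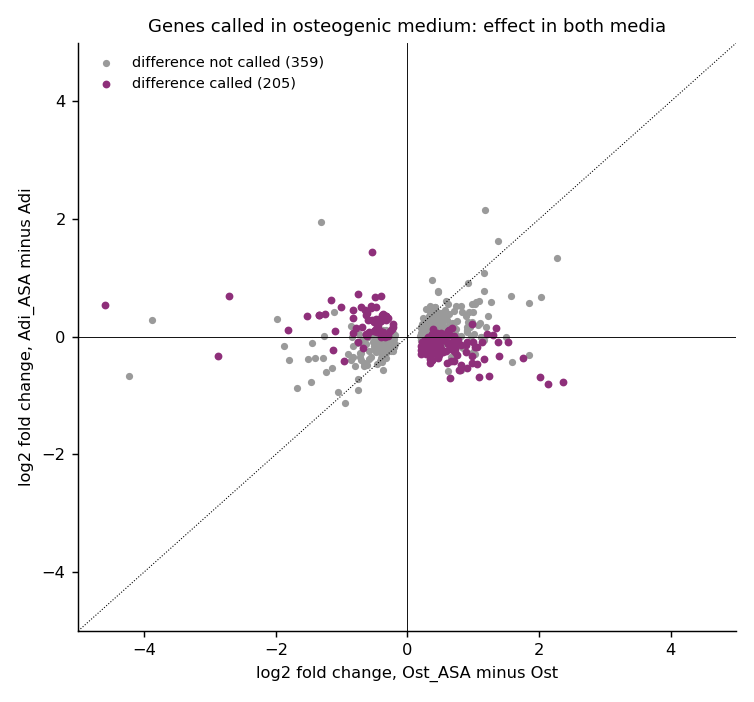
Log2 fold change with aspirin in osteogenic medium (x axis) against that in adipogenic medium (y axis) for the 564 genes called in osteogenic medium, with the 205 whose effects differed by the test in purple and the dotted line at equal effects. Most points lie near 0 on the y axis, on both sides of it.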

How the data were processed

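The authors deposited raw read counts as 1 table of 34480 rows and 15 columns. The submitters' processing notes name the build Rnor_6.0 with DESeq 1.18.0, HTSeq 0.9.1 and HISAT2 2.0.4. Their settings, the annotation release, the strand setting and the handling of reads shared between genes were not given in the sources used here, so counts of overlapping or near-identical genes are uncertain. Column names matched sample titles, which gave group and replicate.

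The test was that of edgeR 4.0.16 (R 4.3.3) on the counts: filterByExpr over the 5 groups (15543 genes, at least 99.94% of the counts of a library), TMM scaling, 1 quasi-likelihood model of group means over all 15 libraries (glmQLFit with robust estimation, glmQLFTest), and Benjamini-Hochberg adjustment over all genes, called at 0.05. SE is the log2 fold change divided by the square root of F. CPM values use TMM-scaled library sizes. Log2 CPM values and ratios of nearest or of highest to lowest libraries over gene groups use a prior count of 2. Alternatives were RLE factors, DESeq2 1.42.0, no filter on low counts, a replicate block, fewer libraries, and each library left out in turn. Fits on fewer libraries kept the same genes. The model was tested on simulated counts.

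No row matched a symbol, so 29 gene lists, core genes and marker lists were not used. The rule for naming then gave 2 genes per direction, by Ensembl identifier. The comparison, lists and rules were chosen with earlier results of these data known. The shares held by the highest library and the gaps between nearest libraries were added after seeing the data. Pairs of replicates differed beyond counting noise, with a chi-square of 6.05 to 13.5 per degree of freedom, and each library counted as 1.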

Additional observations from a re-analysis of the deposited data

Results flagged for a closer look

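A test of the difference between the aspirin effects in osteogenic and adipogenic medium passed for 440 genes. Of the 4 genes described singly, 3 were among them, with differences given as osteogenic minus adipogenic on the log2 scale. They were ENSRNOG00000055012 at 3.14 (SE 0.69, edgeR adjusted p = 0.0374), ENSRNOG00000022432 at 2.12 (SE 0.24, adjusted p = 2.66e-05) and ENSRNOG00000001189 at -1.88 (SE 0.32, adjusted p = 0.0115). All 3 genes had been picked for their change in osteogenic medium. Levels of ENSRNOG00000055012 varied widely among libraries of both media, and what this spread adds to its difference was not tested.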

How the results depend on the processing

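With 1 library left out, the number of genes changed by aspirin was 338 to 543 in osteogenic medium and 285 to 538 in adipogenic medium, and 289 to 428 genes differed between the media; refits have fewer libraries by construction. In osteogenic medium the other settings gave 485 genes (the 6 osteogenic libraries alone) to 735 (DESeq2), and rises made up 60.8% to 68.5% under all 11 settings. DESeq2 shared 543 of the 564 genes, RLE factors 562, no filter on low counts 522 and the 6 osteogenic libraries alone 388. Under all 11 settings together, 231 genes (41%) kept their call, 148 higher and 83 lower. With the replicate number as a block, 516 genes were called, 490 of them from the 564, and ENSRNOG00000055012 lost its call (edgeR adjusted p = 0.0700). Deviations of Ost and Ost_ASA libraries with the same number had correlations of -0.065 to 0.034 over genes of at least 1 CPM, and the numbers were treated as names only. Calls were lost under 6 of the 11 settings for ENSRNOG00000055012, under 5 for ENSRNOG00000051591, under 1 for ENSRNOG00000001189 and under none for ENSRNOG00000022432, and no direction reversed. Below 1 CPM, few reads limit which changes can be called.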
